A study of Mus musculus with 2 samples.

Results

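The nuclear genes of respiratory chain complexes II and III, of cytochrome c and of complex V, the ATP synthase, were examined in the adult mouse heart. A list of 32 gene symbols set the membership, and all 32 were found in both gene tables, among 43346 gene identifiers, by the GENCODE M21 symbol of each identifier. They comprised 6 genes of complex II (4 subunits and 2 assembly factors), 11 of complex III (9 subunits, the assembly factor Bcs1l and cytochrome c) and 15 of complex V (14 subunits and the inhibitor Atpif1). The 2 libraries, 1 for each biological replicate, were made from hearts of C57BL/6J mice aged 8 weeks. Poly(A)+ RNA longer than 200 nucleotides was sequenced as stranded read pairs of 76 nucleotides. The labels describe each library as pooled from male and female littermates, name no transgene or treatment, give no number of animals and leave the health state unknown. Each replicate had a biosample record of its own, and both pointed to the same donor record. The libraries formed 1 group, so levels were compared between subunits and between the 2 libraries, not between conditions. With 2 values, the smallest p of an exact two-sided sign test is 0.5.

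Complex II oxidises succinate to fumarate in the citric acid cycle and hands the electrons to ubiquinone, and all of its subunits are encoded in the nucleus. Complex III passes electrons from ubiquinol to cytochrome c while moving protons across the inner mitochondrial membrane. Complex V lets protons flow back through a membrane part, Fo, whose ring of c subunits turns the shaft of a catalytic head, F1, that makes ATP. Heart muscle is densely packed with mitochondria and draws most of its ATP from this route.

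The gene tables held 57464573 estimated counts in replicate 1 and 62912053 in replicate 2. All 6 cardiomyocyte markers were present. None was called different between the libraries by the exact count test used for all genes, beside 11.8% of all genes. They were not equal, since Tnni3 was 1.90-fold higher in replicate 2. Ryr2 and Pln were 1.67-fold and 1.57-fold higher in replicate 1. The libraries stood further apart in other transcripts. Both were labelled as pooled sexes, yet replicate 1 had 13725 counts of Xist, which is expressed from the inactive X chromosome, and replicate 2 had 13. The 4 Y-linked genes read were at 0 counts in replicate 1 and at 458 to 922 in replicate 2. Red cell markers summed to 0.759% of TPM in replicate 1 and 9.49% in replicate 2. Those of lung epithelium, airway and alveolar, summed to 0.89 and 2536 TPM, with Scgb3a2 and Sftpb at 0 in replicate 1. A call needed an adjusted p of 0.05 and at least 2-fold, and 8.21% of all genes were called higher in replicate 2. Of the markers, 5 of 5 for red cells and 7 of 7 for lung epithelium were called higher in replicate 2. So were 4 of 5 for white fat, 4 of 6 for immune cells and 3 of the 5 tested for skeletal muscle. The other lists did not follow this. Brown fat had 1 of 5 called higher in replicate 2 (Ucp1) and 1 of 5 in replicate 1 (Elovl3). Fibroblasts had 1 of 5 called, Lum, which was higher in replicate 1, as were 3.57% of all genes. Endothelium had 0 of 5 called. In bulk tissue, fewer cells of a type and less RNA per cell cannot be told apart. The part of these markers in the differences between the libraries was not tested.

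None of the 32 genes was at 0, and together they held 2.23% of TPM (the authors' level per effective length) in replicate 1 and 2.77% in replicate 2. The median member had 402 TPM in replicate 1 and 479 TPM in replicate 2. Complex II members held 0.183% and 0.184% of TPM, complex III members 0.631% and 0.833%, and complex V members 1.41% and 1.75%. On this scale 20 of the 32 genes were higher in replicate 2. The direction depended on the denominator. When TPM was rescaled to nuclear genes, all 3 complexes had the larger share in replicate 1: 0.503% and 0.341% for complex II, 1.73% and 1.54% for complex III, and 3.87% and 3.24% for complex V. The nuclear denominator still held the red cell markers, at 0.759% of all TPM in replicate 1 and 9.49% in replicate 2. Shares with these markers left out were not computed. The order of genes within a library is the same on both scales.

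**Figure D1:**
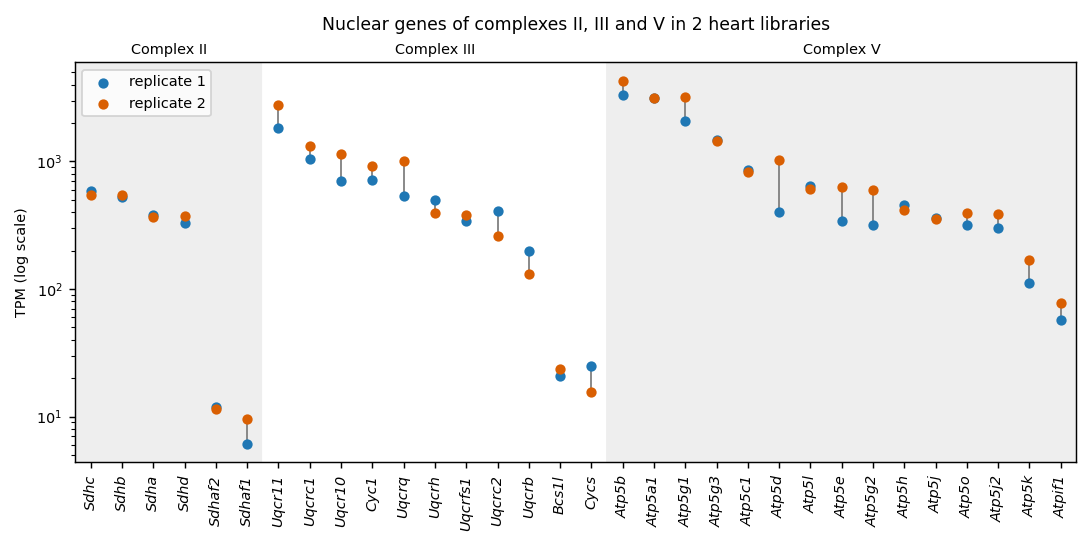
TPM of the 32 genes on a log axis, ordered by mean within each complex. Points are the 2 libraries and a line joins the values of 1 gene. The 4 complex II subunits lie between 328 and 582 TPM, whereas the subunits of complexes III and V spread from 132 to 2751 TPM and from 112 to 4299 TPM.

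The 4 subunits of complex II lay close together. Sdha, the flavoprotein that oxidises succinate, had 379 TPM in replicate 1 and 364 TPM in replicate 2, with a mean of 372 ± 10.7 (SD, n = 2). Sdhb, the iron-sulfur subunit that carries the electrons onward, had 526 and 546 TPM. Sdhb lay above Sdha in both libraries, and their ranges did not overlap. Sdhc and Sdhd anchor the enzyme in the membrane and help to form its ubiquinone site. Sdhc had 582 and 541 TPM, and Sdhd had 328 and 371 TPM. The upper pair, Sdhc and Sdhb, changed places between the libraries, as did the lower pair, Sdha and Sdhd, so only the step between the pairs held in both. From the lowest to the highest subunit the difference was 0.83 on the log2 scale in replicate 1 and 0.58 in replicate 2 (0.70 ± 0.17, SD, n = 2). The subunit medians of complex II, 453 and 456 TPM, were close to each other on this scale, and on nuclear genes alone they were 1242 and 843 TPM.

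The assembly factors of complex II were far below its subunits. Sdhaf1, which helps to insert the iron-sulfur clusters of Sdhb, had 6.07 and 9.50 TPM from 866 and 1432 counts, the fewest of any member in both libraries. Sdhaf2, needed to attach the flavin of Sdha, had 11.8 and 11.5 TPM from 2129 and 2185 counts. Neither range reached the lowest subunit value, 328 TPM.

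Complex III subunits were less even. Among the subunits that carry electrons, Cyc1, the cytochrome c1 subunit, had 710.1 and 913 TPM. Uqcrfs1, the Rieske iron-sulfur protein, had 339 and 379.7 TPM. Cyc1 was higher than Uqcrfs1 in both libraries, with no overlap. Of the core proteins Uqcrc1 and Uqcrc2, which are present in equal numbers in the assembled complex, Uqcrc1 had 1044 and 1315 TPM. Uqcrc2 had 407 and 258 TPM. The ranges of the core pair were far apart, and the larger value was in replicate 2 for Uqcrc1 and in replicate 1 for Uqcrc2.

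The 5 small subunits covered the whole span of complex III. Uqcr11 had 1835 and 2751 TPM, and Uqcr10 had 701 and 1139 TPM. Uqcrq, also known as the ubiquinone-binding protein, had 535 and 1009.8 TPM. Uqcr11 was the highest subunit in both libraries, separate from the next, Uqcrc1, and ranked 40 in replicate 1 and 36 in replicate 2 among all genes by TPM. Uqcrh, the acidic hinge protein near the cytochrome c docking site, had 499 and 390.3 TPM. Uqcrb, a small subunit on the matrix side, had 198 and 132 TPM and was lowest in both libraries, separate from Uqcrc2 above it. The span from lowest to highest subunit was 3.21 on the log2 scale in replicate 1 and 4.38 in replicate 2 (SD 0.83, n = 2). Of the 8 neighbouring pairs in the order of means, 5 kept their order in both libraries and 4 had separate ranges. The pairs that changed order were Uqcr10 and Cyc1, Cyc1 and Uqcrq, and Uqcrfs1 and Uqcrc2. Bcs1l, the chaperone that moves the Rieske protein across the inner membrane, had 20.9 and 23.6 TPM, below every subunit.

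Cycs encodes somatic cytochrome c, the soluble carrier that takes electrons from complex III to complex IV, and it was assigned 24.8 TPM in replicate 1 and 15.5 TPM in replicate 2. Another gene with the same coding sequence took more. Gm10053, annotated as protein_coding at chr19:24875686-24876631 on the plus strand of GRCm38, matched all 315 coding bases of Cycs at 100% identity. The coding sequence of Cycs, which lies at chr6:50565240-50565660 on the minus strand with an intron between its coding parts, is shown because a read inside it cannot be placed with either gene by its letters. Its first 300 bases were read from the GENCODE M21 transcripts, in lower case throughout since nothing differs between the genes:
Cycs: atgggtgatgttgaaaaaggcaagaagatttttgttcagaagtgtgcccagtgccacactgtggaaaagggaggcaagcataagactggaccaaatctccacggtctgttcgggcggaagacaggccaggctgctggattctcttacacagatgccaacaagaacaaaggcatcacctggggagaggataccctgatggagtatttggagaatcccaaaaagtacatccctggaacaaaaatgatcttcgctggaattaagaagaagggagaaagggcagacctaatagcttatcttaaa

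Gm10053 had 138 TPM in replicate 1 and 114 TPM in replicate 2, from 6416 and 5637 estimated counts, against 4428 and 2828 counts for Cycs itself. It held 59.2% and 66.6% of the counts of the pair, and 84.8% and 88.0% of their TPM. Cycs and Gm10053 summed to 163 and 129.6 TPM (146 ± 23.5, SD, n = 2). The assigned level averaged about 20 TPM for Cycs alone and about 146 TPM for the pair, and the split is the quantification program's estimate. Counts of the copy were divided by its own effective length, 745 and 752 nucleotides, against 2863 and 2771 for Cycs. Any of them that came from Cycs would give fewer TPM at the Cycs length. The sum is therefore not the level of Cycs in that case. The posterior SD that the authors deposited for the Cycs count was 41.8 counts in replicate 1 and 34.7 in replicate 2. The leading transcript of Cycs, Cycs-202, is 3123 nucleotides long and held 97.8% and 93.8% of its TPM. Cyct, the testis form of cytochrome c, had 0 counts in replicate 1 and 2 in replicate 2.

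**Figure D2:**
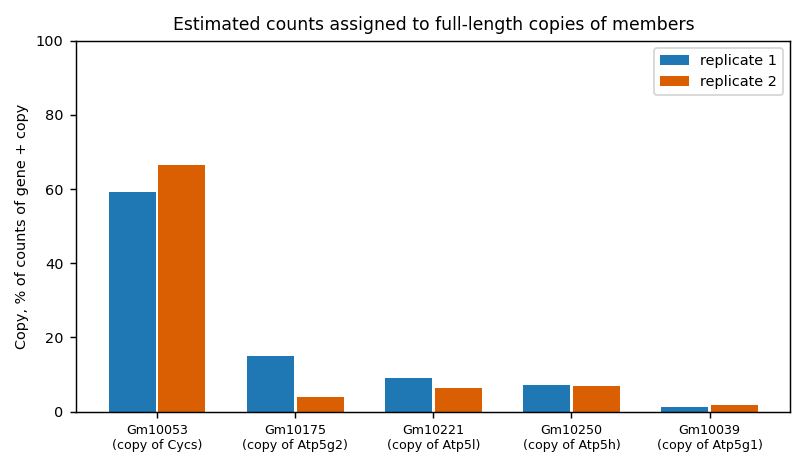
Estimated counts given to a full-length copy, as a percentage of the counts of the gene plus that copy, for the 5 copies with at least 100 counts in replicate 1. Bars are the 2 libraries, each a single value with no error. Gm10053 holds 59.2% and 66.6% of the pair with Cycs, and the other copies hold 1.21% to 14.9%.

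Complex V was led by Atp5b, with Atp5a1 next by mean TPM, both of the catalytic head. Atp5b encodes the beta subunit, which carries the catalytic sites, and had 3299 TPM in replicate 1 and 4299 TPM in replicate 2. Atp5a1 encodes the alpha subunit, which alternates with beta around the head, and had 3115 and 3122 TPM. These genes ranked 28 and 30 among all genes in replicate 1 and 27 and 33 in replicate 2, and their ranges did not overlap. The central shaft was lower. Atp5c1, the gamma subunit, had 861 and 826 TPM. Atp5d, the delta subunit, had 398 and 1019 TPM. Atp5e, the epsilon subunit, had 339 and 630.4 TPM. Over the libraries Atp5c1 averaged 843 ± 24.8 TPM and Atp5d 709 ± 439 TPM (SD, n = 2 each). Rescaled to nuclear genes they averaged 1944 ± 591 and 1488 ± 559 TPM, so the contrast in their spread depended on the denominator.

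The c subunits that form the rotor ring came from 3 genes, Atp5g1, Atp5g2 and Atp5g3, which encode different import signals ahead of the same mature protein. On translation the last 75 residues were identical in all 3. Their last 225 coding bases are shown to let the genes be told apart at the RNA level. Capitals mark the 57 positions at which the 3 genes are not all the same, and the bases were read from GENCODE M21 transcripts on GRCm38. The coding spans, introns included, were chr11:96073107-96075025 for Atp5g1, chr15:102663017-102667749 for Atp5g2 and chr2:73908596-73910993 for Atp5g3, all on the minus strand.
Atp5g1: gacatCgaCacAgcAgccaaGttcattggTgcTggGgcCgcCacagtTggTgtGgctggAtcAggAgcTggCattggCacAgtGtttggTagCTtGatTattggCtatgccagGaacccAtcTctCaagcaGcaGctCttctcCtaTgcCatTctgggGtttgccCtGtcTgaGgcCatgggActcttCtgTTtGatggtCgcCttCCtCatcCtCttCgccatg
Atp5g2: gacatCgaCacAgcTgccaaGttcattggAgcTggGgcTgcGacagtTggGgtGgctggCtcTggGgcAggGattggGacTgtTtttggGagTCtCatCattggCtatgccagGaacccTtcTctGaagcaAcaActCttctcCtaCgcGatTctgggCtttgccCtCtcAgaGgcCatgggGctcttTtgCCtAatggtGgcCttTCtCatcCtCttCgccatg
Atp5g3: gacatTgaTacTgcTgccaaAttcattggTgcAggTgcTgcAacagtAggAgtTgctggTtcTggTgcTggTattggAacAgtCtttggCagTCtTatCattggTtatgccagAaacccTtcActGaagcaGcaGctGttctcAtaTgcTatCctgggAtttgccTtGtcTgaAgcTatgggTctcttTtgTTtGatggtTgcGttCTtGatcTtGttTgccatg

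Identity over these bases was 84.9% between Atp5g1 and Atp5g2, 80.0% between Atp5g1 and Atp5g3, and 78.7% between Atp5g2 and Atp5g3. The longest run of shared bases in a pair was 20, 11 and 8 in the same order, so a read of 76 nucleotides lying inside this stretch met at least 1 difference. Atp5g1 had 2063 and 3194 TPM, Atp5g2 had 315 and 602 TPM, and Atp5g3 had 1482 and 1453 TPM. Atp5g1 was highest and Atp5g2 lowest in both libraries, with no overlap between the 3 ranges. Atp5g1 supplied 53.4% of the TPM of the 3 genes in replicate 1 and 60.9% in replicate 2 (57.1 ± 5.24, SD, n = 2). Atp5g3 supplied 38.4% and 27.7%, and Atp5g2 supplied 8.15% and 11.5%. On the TPM scale Atp5g3 was nearly equal in the libraries, whereas Atp5g1 and Atp5g2 had larger values in replicate 2. Together the 3 genes had 3859 and 5249 TPM.

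The peripheral stalk, which keeps the head from turning, and the other nuclear subunits of the membrane part lay below Atp5b, Atp5a1, Atp5g1, Atp5g3 and Atp5c1 in both libraries. Atp5o, the OSCP subunit that joins the stalk to the head, had 319 and 391 TPM. Atp5h, subunit d of the stalk, had 456 and 416 TPM. Atp5j, coupling factor 6, had 359 and 352 TPM. These 3 stalk genes stayed within 319 to 456 TPM. Of the membrane subunits, Atp5l, subunit g, had 642 and 608 TPM. Atp5j2, subunit f, had 299 and 385 TPM. Atp5k, subunit e, had 112 and 169 TPM and was the lowest subunit of complex V in both libraries, separate from Atp5j2 above it. Atpif1, which inhibits the enzyme when it would run backwards and break down ATP, had 57.5 and 77.2 TPM, below every subunit.

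Across the 14 subunits of complex V the span was 4.88 on the log2 scale in replicate 1 and 4.67 in replicate 2 (4.77 ± 0.15, SD, n = 2). Of its 13 neighbouring pairs, 7 kept their order and 5 had separate ranges. The pairs that changed order were Atp5a1 and Atp5g1, Atp5c1 and Atp5d, Atp5d and Atp5l, Atp5l and Atp5e, Atp5g2 and Atp5h, and Atp5j and Atp5o. The subunit median of complex V was 427 and 619 TPM, compared with 535 and 913 TPM for complex III and 453 and 456 TPM for complex II. The ratio of the complex V median to the complex II median was 0.944 in replicate 1 and 1.36 in replicate 2, so its direction changed between the libraries. The ratio of the complex V median to the complex III median was 0.798 and 0.678 (0.738 ± 0.0846, SD, n = 2). Complexes II, III and V have 4, 9 and 14 subunits in the list, and the difference in their spans was not tested.

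These gene levels were split among annotated transcripts, and the split is the quantification program's estimate. Reads across introns or junctions were not examined. For Atp5a1 and Atp5b, the highest pair by mean TPM, at most 50.3% of TPM lay on transcripts annotated as protein-coding in each library. In Atp5a1 the coding transcript Atp5a1-201, of 2471 nucleotides, held 45.9% and 41.3% of TPM, and Atp5a1-203, annotated as retained_intron and 765 nucleotides long, held 52.8% and 57.1%. By estimated counts the order was the other way, with 202317 and 192911 counts on Atp5a1-201 and 57512 and 66528 on Atp5a1-203. In Atp5b the coding transcript Atp5b-201 held 50.3% and 34.2%, and Atp5b-205, annotated as retained_intron, held 41.4% and 47.9%. Atp5b-207, of 343 nucleotides, held 0.508% in replicate 1 and 13.2% in replicate 2. On coding transcripts alone Atp5b had 1661 and 1471 TPM and Atp5a1 had 1443 and 1298 TPM. Both then had the larger value in replicate 1, and Atp5g1, at 2063 and 3194 TPM, became the highest gene of complex V.

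**Figure D3:**
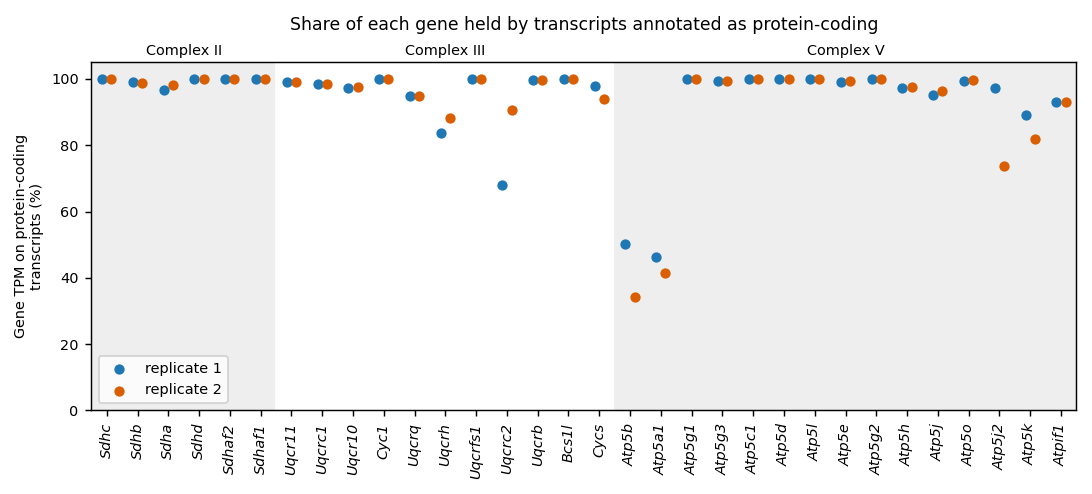
Percentage of each gene's TPM on transcripts annotated as protein-coding, in the 2 libraries. Most genes lie above 90%, Atp5a1 and Atp5b lie between 34.2% and 50.3%, and Uqcrc2 and Atp5j2 differ between the libraries.

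In 24 of the 26 members with 2 or more transcripts the leading transcript was protein-coding, and in 25 the same transcript led in both libraries. The lead held over 90% of TPM in 14 of the 26. Uqcrc2 had 68.1% of TPM on its coding transcript in replicate 1 and 90.7% in replicate 2. The remainder in replicate 1 was mostly Uqcrc2-202, annotated as processed_transcript, with 104 TPM, against 1.95 TPM in replicate 2. On Uqcrc2-201 alone the libraries had 277 and 234 TPM, closer than the gene totals of 407 and 258 TPM. Atp5j2 showed the reverse pattern, since its transcript annotated for nonsense_mediated_decay, Atp5j2-204, held 2.84% in replicate 1 and 26.2% in replicate 2. Uqcrh-205, a retained_intron transcript, held 14.0% and 9.62% of Uqcrh.

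For other members the choice lay between coding transcripts. Sdhc-201, of 815 nucleotides, held 86.0% and 86.5% of Sdhc TPM, yet the longer Sdhc-202, of 3171 nucleotides, had 15013 and 14153 counts beside 19084 and 19021. Uqcrq-203, of 405 nucleotides, led by TPM with 68.3% and 64.9%, and Uqcrq-201, of 1521 nucleotides, led by counts with 70.5% and 73.4%. Atp5g3-201 held 79.5% and 79.9% and Atp5g3-202 held 19.9% and 19.5%, a split that hardly moved between the libraries. Atp5c1-201 held 90.9% and 86.4%, and Atp5c1-203 held 8.04% and 12.1%.

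Copies of coding sequences were not limited to Cycs. Of the 32 members, 17 had at least 1 related gene by sequence search, 9 had a full-length copy in the tables (at least 95% of the coding sequence at 95% identity), and 7 had such a copy with counts. Gm10175, identical to all 438 coding bases of Atp5g2, had 1808 counts in replicate 1 and 889 in replicate 2, which is 14.9% and 4.04% of the pair. Gm10221, identical to the 309 coding bases of Atp5l, had 1235 and 858 counts, or 9.13% and 6.39%. Gm10250, 99.0% identical to Atp5h, had 952 and 889 counts, or 7.30% and 7.01%. Gm10039, 99.8% identical to Atp5g1, had 669 and 1614 counts, or 1.21% and 1.77%. Gm5436, a copy of Atp5o, had 49 and 39 counts. These shares are the quantification program's estimates of what belongs to the copies, and they are not an error on the levels of the members. A posterior SD above 1 count was deposited for 6 members in at least 1 library, namely Cycs, Atp5g1, Atp5g2, Atp5h, Atp5l and Atp5o, and each of the 6 had a full-length copy with counts. The largest was that of Atp5g2, at 96.2 and 52.4 counts.

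Between the libraries, counts were compared by an exact two-sided binomial test on TMM-scaled totals over 16145 genes, with Benjamini-Hochberg adjustment and a limit of 2-fold. No member was called higher in replicate 1, where 3.57% of all genes were. A single member, Atp5d, at chr10:80138632-80145818 on the plus strand, was called higher in replicate 2, where 8.21% of all genes were; 11.8% were called in either direction. A count of 1 in 32 is below that background share. Its counts were 18119 in replicate 1 and 49063 in replicate 2, a log2 ratio of replicate 1 over replicate 2 of -1.18, or 2.27-fold higher in replicate 2 (95% interval 2.23 to 2.31, counting error only). The test compares these 2 libraries, not conditions. With a common dispersion over genes (edgeR's exact test, biological coefficient of variation 0.275), 2.54% of all genes were called and Atp5d was not. That dispersion was estimated from the same 2 libraries taken as 1 group, so the differences under test also set it. It is not a separate measure of biological spread.

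Among the members below the limit, Cycs had a log2 ratio of 0.90 and Uqcrb of 0.74, both larger in replicate 1. The ratio of Cycs rests on the estimated split with Gm10053, which held 59.2% and 66.6% of the counts of the pair. Uqcrq at -0.86, Atp5g2 at -0.78 and Atp5e at -0.76 were larger in replicate 2. The ratios of Sdhd, at -0.01, and Uqcrfs1, at 0.01, were closest to equality. The median over the 32 members was 0.02 and that over all genes 0.01, and 53.1% of members and 51.2% of all genes had a ratio above 0.

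The ratios of the members ran against the GC content of their leading transcripts. Across the 32 genes Pearson's r was -0.807 and Spearman's rho -0.750, and across 15983 genes with a GC value they were -0.376 and -0.580. These points share the same 2 libraries and genes are not independent replicates, so no p is given. Cycs, with 40.8% GC, and Uqcrb, with 42.2%, were at one end, and Atp5d, with 61.1%, was at the other. Once the running median over genes of like GC was subtracted, Atp5d had a log2 ratio of -0.65, Atp5e of -0.58 and Cycs of 0.36, and no member passed the limit, which 8.96% of all genes still did. The median leading transcript was 826.5 nucleotides long over the members, against 2419 over all genes tested, and its median GC content was 51.4%, against 50.9%.

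**Figure D4:**
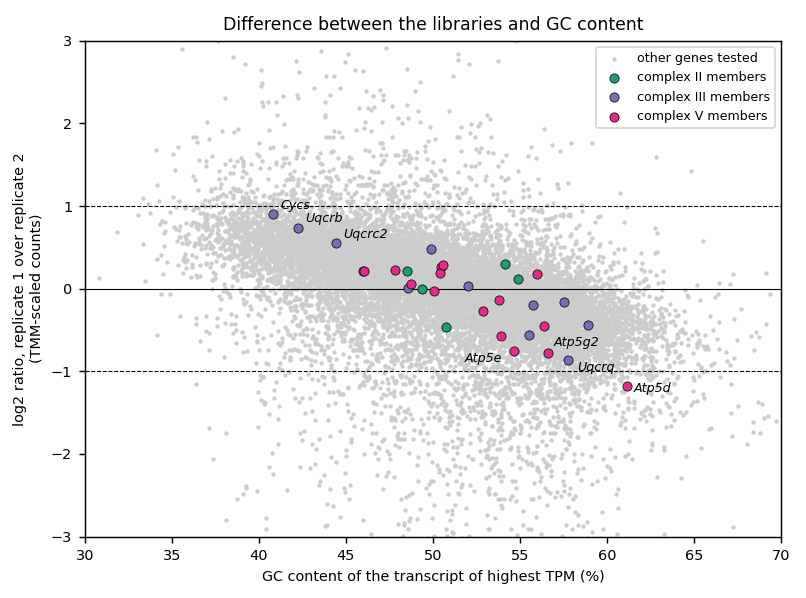
Log2 ratio of TMM-scaled counts, replicate 1 over replicate 2, against GC content of the leading transcript, for the members by complex and for other genes tested in grey. Dashed lines mark the 2-fold limit, and 322 grey points lie outside the axes. Members run from Cycs at 0.90 and 40.8% GC to Atp5d at -1.18 and 61.1% GC. Cycs is shown without the counts of its copy Gm10053.

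Nuclear genes of the respiratory chain are known to be under the control of NRF1, GABPA, YY1 and ESRRA, so their letters were sought on both strands of the RefSeq promoter windows, 250 bases before to 50 after the start. The windows covered 26 of the 32 members, and 27025 genes in all. The NRF1 motif, GCGCA and GCGC with any 1 base between them, was in 10 members (38.5%) and in 5.19% of all genes. CCGGAAG, the GABPA motif, was in 12 members (46.2%) and in 9.93% of all genes. AAGATGGCG, for YY1, was in Atp5j and Atp5j2 (7.69%, against 1.64% of all), and TNAAGGTCA, for ESRRA, in Sdhd and Atp5g3 (7.69%, against 1.43%). In all, 20 members held at least 1 of the 4 motifs, 5 held at least 2 kinds, and matches to different motifs overlapped in 0 members. A match is a description of letters, not of binding. Sdhd and Atp5h are shown because they alone held both the NRF1 and the GABPA motif within the 250 bases before the start. Capitals mark these motifs, and the windows are chr9:50603850-50604099 and chr11:115419920-115420169 on GRCm38.p6, both read along the minus strand.
Sdhd: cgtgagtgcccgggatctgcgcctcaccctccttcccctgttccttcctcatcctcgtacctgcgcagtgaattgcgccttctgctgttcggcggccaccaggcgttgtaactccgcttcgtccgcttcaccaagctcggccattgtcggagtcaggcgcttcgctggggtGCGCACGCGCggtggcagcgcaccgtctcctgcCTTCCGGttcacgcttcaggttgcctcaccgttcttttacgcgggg
Atp5h: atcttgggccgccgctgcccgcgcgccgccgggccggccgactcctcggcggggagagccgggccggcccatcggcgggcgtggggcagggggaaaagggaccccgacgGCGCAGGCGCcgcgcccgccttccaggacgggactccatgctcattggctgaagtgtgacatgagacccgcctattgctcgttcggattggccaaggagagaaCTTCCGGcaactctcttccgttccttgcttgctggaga

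Sdhd, at 328 and 371 TPM, and Atp5h, at 456 and 416 TPM, were both near the median of the members. The other NRF1 matches were in Sdha, Uqcrc1, Atp5c1, Atp5g2, Atp5g3, Atp5k, Atp5o and Atpif1, which ran from 57.5 to 1482 TPM in the libraries. The GABPA matches were in members as far apart as Sdhaf1, at 6.07 and 9.50 TPM, and Uqcr11, at 1835 and 2751 TPM.

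Partner genes outside the list were read in the same way. Of 15 other nuclear genes of complexes II, III and V, 14 were found, 13 were tested and 0 were called in either direction, beside 11.8% of all genes. The highest were Atp5f1, subunit b of the stalk, with 402 and 253 TPM, Usmg5, a small membrane subunit of complex V, with 287 and 276 TPM, and Uqcc2, a complex III assembly factor, with 138 and 153 TPM. The mitochondrially encoded partners were far higher. Cytochrome b of complex III, mt-Cytb, had 27220 and 22044 TPM, and subunit a of complex V, mt-Atp6, had 22599 and 17128 TPM. The value of mt-Atp8, 152305 and 63798 TPM, rested on effective lengths of 6.51 and 10.97 nucleotides, although its counts, 61894 and 45983, were lower than those of mt-Atp6, 672113 and 544935. None of the 3 was called between the libraries.

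The nuclear subunits of the other chain complexes lay on either side. The 36 genes of complex I had medians of 215 and 299 TPM, and 0 were called higher in replicate 1 and 2 in replicate 2, Ndufs7 and Ndufab1. The 15 genes of complex IV had medians of 629 and 1148 TPM, and 0 were called higher in replicate 1 and 1 in replicate 2, Cox6a2. Of all genes, 3.57% were called higher in replicate 1 and 8.21% in replicate 2, so the calls in complexes I and IV do not set them apart. The 32 members, with medians of 402 and 479 TPM, stood between the complexes in both libraries. They include assembly factors, cytochrome c and the inhibitor, whereas the lists of complexes I and IV hold subunits only. The subunit medians of complexes II, III and V also lay between in both libraries. These differences in level were not tested.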

How the data were processed

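Poly(A)+ RNA-seq of 2 heart libraries was analysed from the gene and transcript tables. Per the file headers, the authors deposited for each library the expected count (estimated counts that need not be whole), TPM and FPKM per gene and transcript, and the isoform percent of each transcript. The authors' notes give build mm10 and GENCODE M4; for the aligner and the quantification program, names were not given in the sources used here. GENCODE M21 supplied symbols for 42462 of the 43346 identifiers (98.0%), coordinates and coding sequences; RefSeq supplied promoters. The 32 genes, the other lists and the rule for named genes (all 32, the 3 mitochondrially encoded partners, and of other lists the 3 highest genes and any called) were chosen with earlier results of these data known.

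Estimated counts were rounded, scaled by TMM (0.957 for replicate 1 and 1.04 for replicate 2) in edgeR 4.0.16 under R 4.3.3, and compared by an exact two-sided binomial test over the 16145 genes whose summed count reached 20. A call needed a Benjamini-Hochberg adjusted p of 0.05 and a 2-fold difference. Intervals and p-values cover counting error only, and the labels do not name the animals behind each library. Copies were sought with blastn 2.17.0 in GENCODE M21 transcripts (alignments of at least 76 nucleotides). GC trends were running medians over 401 genes. The assembly mm9 contig and junction lists were not used here.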

Additional observations from a re-analysis of the deposited data

How the results depend on the processing

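Calls between the libraries rested on the limit. At 1.5-fold, 2 members (Uqcrb and Cycs) were higher in replicate 1 and 4 (Uqcrq, Atp5d, Atp5e and Atp5g2) in replicate 2, beside 12.2% and 15.1% of all genes. With no fold limit 15 and 13 members were called, beside 34.9% and 32.9% of all genes. In replicate 2, 0 members were called higher with the GC trend removed, beside 6.84% of all genes, or with edgeR's exact test, beside 2.09%. DESeq2 size factors, scaling by total counts, no count minimum and the length trend left Atp5d as the 1 call. So did setting the 2-fold limit on the TPM ratio while the adjusted p still came from counts.

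Shares depended on the denominator. The mean over the libraries was 0.184% for complex II, against 0.260% by CPM, 0.422% on nuclear genes, 0.216% without genes of effective length under 100 and 0.182% on coding transcripts. For complex III it was 0.732%, against 0.518% by CPM and 1.64% on nuclear genes. For complex V it was 1.58%, against 3.56% on nuclear genes, 1.85% without short genes and 1.17% on coding transcripts. By CPM (counts scaled to the library total), not divided by length, the complex V median was 0.489 times that of complex II and 0.599 times that of complex III, against 1.15 and 0.738 by TPM, and the leading genes were Sdha in complex II and Uqcrc1 in complex III, in place of Sdhc and Uqcr11. Leaving out 1 library gave 0.944 to 1.36 for the ratio of complex V to complex II, so its direction rests on the library kept. The c-ring shares moved by less than their SD under posterior mean TPM, CPM, coding transcripts only and added copies. FPKM and the rescaled denominators cannot move them, and leaving out 1 of 2 libraries cannot move a mean by more than its SD. Coding transcripts only and added copies were chosen after seeing the data. FPKM and posterior mean TPM moved 0 and 1 of the 32 levels by more than their SD. The cause of these shifts was not tested beyond the alternatives' own construction. No paired analysis was possible because the 2 libraries form 1 group. By counts in place of TPM, 19 of 26 leading-transcript shares moved by more than their SD. With the 250 bases before the start alone, 7 members held the NRF1 motif and 9 the GABPA motif. An SD over 2 libraries is itself uncertain, and the member with the fewest counts, Sdhaf1, had 866 and 1432.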
